A study of Mus musculus with 4 samples.

Results

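The wells described here are mouse heart wells that carried the RNA of endothelial cells although they came from the cardiomyocyte (CM) fraction, which had been separated from the other heart cells by repeated low-speed centrifugation. They were chosen in 3 steps from the wells labelled CM. A well was kept with at least 10000 unique molecular identifiers (UMIs, tags that mark single cDNA molecules) and 300 detected genes, which left 1133 CM wells of 3990 wells in all. Of these, 181 were taken because 12 endothelial genes (Pecam1, Cdh5, Fabp4, Kdr, Flt1, Ly6c1, Egfl7, Tie1, Cldn5, Esam, Emcn and Aqp1) together made up at least 0.3% of their UMIs, with at least 4 of the 12 detected. Wells in which the endocardial genes Npr3, Cytl1 and Vwf reached 0.2% or the fibroblast genes Dcn, Col1a1 and Col3a1 reached 0.5% were left out. Every share is of the UMIs outside mitochondrially encoded (mt-) and haemoglobin (Hba-, Hbb-) genes unless stated otherwise. Since the marker values chose the wells, the levels of these 12 genes are given as a description, without a test.

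The study profiled single cells of C57BL/6 mouse hearts, of wild-type (WT) animals and of animals labelled KO and Mst1/2-deficient. Its title concerns a leukotriene B4 receptor 1 antagonist combined with an MST1/2 kinase inhibitor in myocardial infarction, but the sample labels name no drug and no infarct. Each genotype has 2 animals (WT1, WT2, KO1 and KO2), and each animal gave a CM and a non-cardiomyocyte (NCM) suspension. The 4 libraries are WT NCM, WT CM, KO CM and KO NCM, and each is 1 chip that holds the wells of both animals of its genotype. The labels give neither age, sex nor how and in which cells the genes were removed. Because the CM wells of a genotype are 1 chip, genotype and chip cannot be told apart within the fraction, and p-values measure only the spread between 2 animals a genotype.

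Endothelial cells line all blood vessels of the heart, and capillaries run beside nearly every cardiomyocyte. They hold together through VE-cadherin (Cdh5) and PECAM-1, respond to VEGF through Kdr and Flt1, and in heart muscle pass fatty acids to the myocytes with Gpihbp1, Cd36, Fabp4 and Fabp5. MST1 and MST2, encoded by Stk4 and Stk3, are the core kinases of the Hippo pathway, which restrains the transcriptional co-activators YAP and TAZ.

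The chosen wells numbered 35 in WT1, 26 in WT2, 76 in KO1 and 44 in KO2. The 12 markers together ranged from 0.302% to 2.18% of UMIs in WT1 (median 0.840%), from 0.301% to 1.49% in WT2 (0.563%), from 0.318% to 1.89% in KO1 (0.708%) and from 0.307% to 1.78% in KO2 (0.513%). Only 3 wells had UMIs of all 12 markers, 104 had 8 or more, and 13 had the minimum of 4. In the other 952 CM wells the median marker share was 0.0147%, 0.0250%, 0.0781% and 0.0424% in WT1, WT2, KO1 and KO2. No gap separated the 2 kinds of well. The 5 values just inside the threshold were 0.301%, 0.302%, 0.307%, 0.308% and 0.308%, and the 5 nearest below it were 0.2998%, 0.299%, 0.297%, 0.288% and 0.286%. Of the kept CM wells, 77 lay between 0.2% and 0.3%, 75 between 0.3% and 0.5%, 87 between 0.5% and 1%, 39 at 1% or more and 244 under 0.01%. The threshold was passed by 201 wells, of which 12 were lost to the number of markers, 6 to endocardial and 3 to fibroblast genes (1 of them to both).

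The label endothelial describes only part of the RNA in these wells. The 15 cardiomyocyte markers (Myh6, Tnnt2, Actc1, Pln, Mb and others) made up at least 1% of UMIs in 178 of the 181 wells, and 180 held more cardiomyocyte than endothelial marker UMIs. The 3 wells under 1% were all from KO1. The median cardiomyocyte marker share was 6.15%, 9.12%, 5.20% and 9.01% in the endothelial-marker wells of WT1, WT2, KO1 and KO2, against 11.6%, 12.5%, 7.35% and 11.8% in the other CM wells. In the 891 NCM wells that met the same marker rule it was 0.180%, 0.280%, 0.422% and 1.00%. The endothelial-marker wells of the CM fraction thus carried less cardiomyocyte marker RNA than their neighbours on the chip and far more than endothelial wells of the other fraction. Within animals, wells with more endothelial marker had less cardiomyocyte marker, with Spearman's rho of -0.413, -0.638, -0.232 and -0.627 over 35, 26, 76 and 44 wells. Both shares are of 1 total, so these coefficients are a description only. No doublet caller was run here. Whether a well held an endothelial cell with a cardiomyocyte, an endothelial cell with free cardiomyocyte RNA, or a cardiomyocyte with endothelial RNA was not tested.

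**Figure D1:**
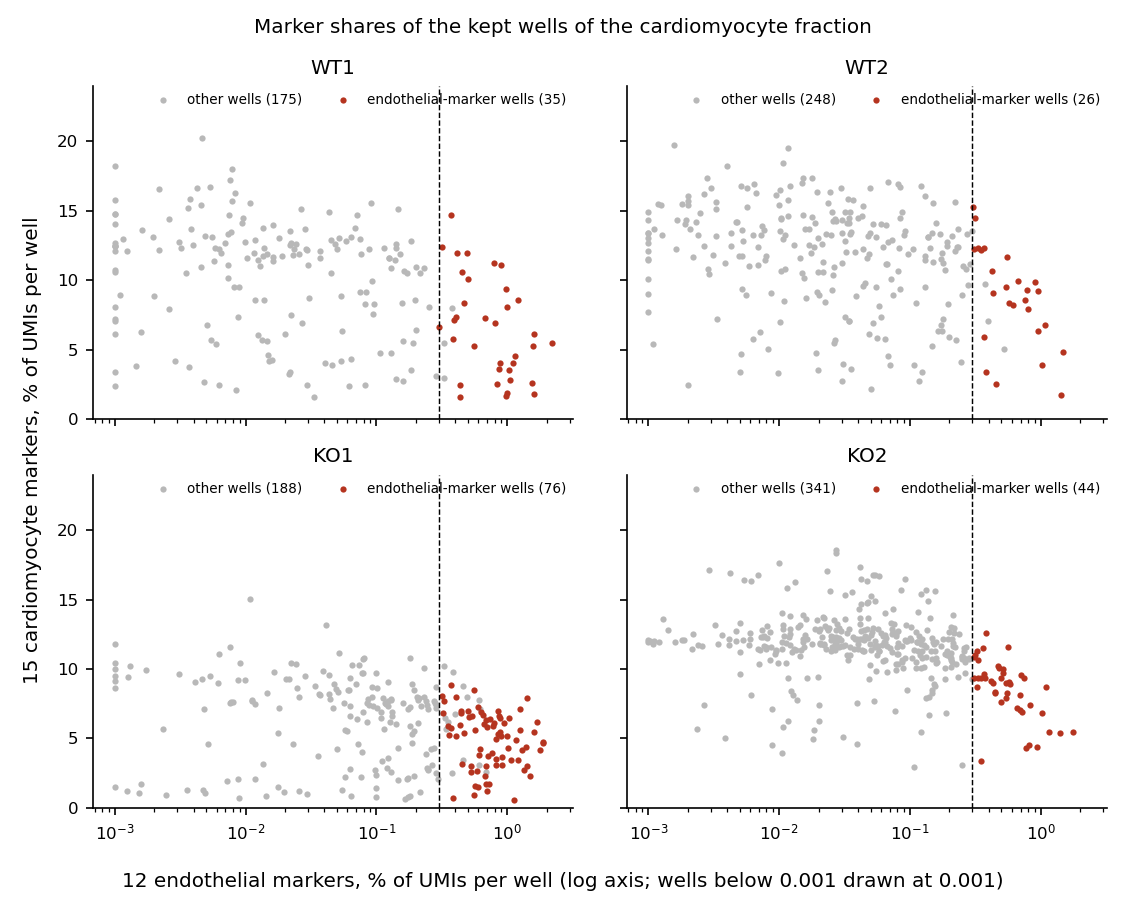
Each point is a kept well of the CM fraction, with the share of the 12 endothelial markers on the x axis (log scale, the dashed line is the 0.3% threshold) and that of the 15 cardiomyocyte markers on the y axis, 1 panel per animal. Red points are the 181 endothelial-marker wells, which continue the cloud of grey wells without a gap and with 3 exceptions stay above 1% cardiomyocyte marker. Grey points right of the line failed another step of the rule.

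The values are called UMI counts because their sum per well equals the deposited number of distinct gene and UMI pairs. How UMIs were collapsed is not known here, and the median nonzero count per gene and well was 4 to 8. Whether 1 count is 1 molecule was not tested. Every UMI number, depth and detection share rests on this reading. The wells held 3481946 to 9407476 UMIs per animal in sum, with a median of 59852 (KO1) to 208489.5 (KO2) UMIs and 1688.5 (KO1) to 3569.5 (KO2) genes per well. Mitochondrially encoded genes took 42.7%, 37.8%, 50.9% and 33.9% of all summed UMIs in WT1, WT2, KO1 and KO2, so that KO1 was both the shallowest and the richest in mitochondrial RNA. Of the 181 well barcodes, 81 (44.8%) also named a kept NCM well and 26 (14.4%) an NCM endothelial well; of the other CM wells 48.7% and 16.6% did, and 60 kept barcodes occurred in both CM libraries. Whether RNA was shared between wells of the same barcode was not tested. Without the barcodes kept in the other fraction edgeR called 0 genes between KO and WT, as with them, on fewer wells. A count that stays at 0 cannot show whether sharing matters. For CM against NCM endothelial-marker wells the called genes went from 735 to 496. For the KO minus WT difference between fractions they went from 0 to 28. The targeted genes were measured on few UMIs. Stk4 was measured at 10.5 CPM in WT1, 1.16 in WT2, 8.46 in KO1 and 2.49 in KO2, from 46, 4, 53 and 24 UMIs, and Stk3 at 22.8 CPM in WT1, 8.44 in WT2, 8.62 in KO1 and 15 in KO2, from 100, 29, 54 and 144 UMIs. CPM, the usual depth-scaled unit, sets a gene's UMIs against those of all tested genes, here with libraries scaled by the trimmed mean of M values (TMM). These levels of WT and KO overlapped for both genes. The share of wells with a UMI did not: for Stk4 it was 22.9%, 12%, 5.26% and 4.55% in WT1, WT2, KO1 and KO2, and for Stk3 25.7%, 23.1%, 7.89% and 18.2%. In the other CM wells it was 16.6%, 16.1%, 10.1% and 13.2% for Stk4 and 13.1%, 13.3%, 9.04% and 11.1% for Stk3, again higher in both WT animals. With every well thinned to 10000 UMIs the chosen wells of WT and KO overlapped (Stk4 14.3%, 0%, 2.63% and 4.55%, Stk3 14.3%, 7.69%, 6.58% and 9.09%), on at most 5 wells with a UMI per animal. In the other wells the thinned shares were 6.86%, 5.65%, 5.32% and 3.81% for Stk4, without overlap, and 5.71%, 3.23%, 6.38% and 2.64% for Stk3, with overlap. Since the deleted part is not known here, none of these values is a check of the labels. The Y-linked gene Ddx3y was present in every animal, at 55.3 CPM in WT1, 38.4 in WT2, 53 in KO1 and 38.3 in KO2.

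The first question was how much of the CM fraction these wells made up in each genotype. They were 35 of 210 kept CM wells in WT1 (16.7%, exact Clopper-Pearson 95% interval 11.9% to 22.4%) and 26 of 274 in WT2 (9.49%, 6.29% to 13.6%). KO1 had 76 of 264 (28.8%, 23.4% to 34.7%) and KO2 had 44 of 385 (11.4%, 8.43% to 15%). KO1 stood highest, while KO2 lay between both WT animals. The means were 13.1% in WT and 20.1% in KO, a difference of 7.03 percentage points that is within the spread of the animals (exact two-sided permutation test over 2 against 2 animals, p = 0.667, where 0.333 is the smallest value the design allows). Without KO1 the difference was -1.65 points. Each animal was dispensed from 4 source wells, and between these the share ranged from 23.9% to 35.1% in KO1, 7.45% to 15.8% in KO2, 8.62% to 22.2% in WT1 and 5.26% to 11.7% in WT2. Intervals cover counting error only, and a share of wells cannot tell more endothelial cells from more cells with enough RNA to pass the rule.

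Endothelial genes that the rule did not use followed the chosen wells. Of 30 further endothelial identity genes, 28 had a higher level in the endothelial-marker wells than in the other CM wells of all 4 animals, and the median ratio over the 30 genes was 8.02 in WT1, 5.70 in WT2, 4.51 in KO1 and 4.63 in KO2. The 12 rule genes themselves had median ratios of 12.8, 7.09, 6.92 and 8.56, which the selection fixes. These ratios describe the wells and carry no test, because wells chosen by correlated genes had to differ. Over wells, the share of the 30 genes and the marker share went together in each animal (Spearman's rho 0.682, 0.582, 0.327 and 0.495), both being parts of the same total.

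Among the rule genes, Pecam1 (chromosome 11, 106654217 to 106750628 of mm10, minus strand), a junction molecule, was at 84.6 CPM in WT1, 113 in WT2, 157 in KO1 and 99.1 in KO2, against 13.6 to 19 CPM in the other CM wells. Cdh5 (chromosome 8, 104101625 to 104144511, plus strand), which encodes VE-cadherin, was at 158 CPM in WT1, 149.9 in WT2, 171 in KO1 and 104 in KO2, against 11.1 to 26.1 CPM. Fabp4, a fatty acid binding protein of capillaries, was at 1917 CPM in WT1, 2548 in WT2, 1392 in KO1 and 1373 in KO2, against 131 to 201 CPM. The levels of both kinds of well did not overlap for any of these genes. Pecam1 had UMIs in 69.1% of the chosen and 23.6% of the other wells, and after thinning every well to 10000 UMIs in 43.6% and 8.09%. For Cdh5 these shares were 73.5% and 27.2%, thinned 53.0% and 9.24%. The claudin gene Cldn5 was the rarest, with UMIs in 14.9% and 2.52% of wells. The median depths were 89340 UMIs in the chosen and 142339 in the other wells.

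Of the genes outside the rule, the transcription factor genes Erg, Sox17 and Sox18 followed the same order. Sox17 was at 19.2 CPM in WT1, 32.1 in WT2, 18.8 in KO1 and 17.5 in KO2, against 1.12 to 3.06 CPM elsewhere, and Sox18 at 14.5 CPM in WT1, 17 in WT2, 47.6 in KO1 and 39.9 in KO2, against 1.86 to 4.98 CPM. Erg was detected in 35.9% of the chosen and 10.6% of the other wells. Ecscr, an endothelial membrane protein, was at 214 CPM in WT1, 228 in WT2, 205 in KO1 and 153 in KO2, against 19.5 to 55.1 CPM. Ptprb, the vascular phosphatase that acts on Tie2, was at 114 CPM in WT1, 179.5 in WT2, 137 in KO1 and 184 in KO2, against 11.9 to 33.6 CPM. Robo4, a receptor that stabilises vessels, was at 33.7 CPM in WT1, 34.6 in WT2, 111 in KO1 and 68 in KO2, against 1.98 to 12.5 CPM. The exceptions among the 30 were the T-cadherin gene Cdh13, at 85.2 to 163 CPM in the chosen and 79.3 to 159.7 CPM in the other wells, and the endoglin gene Eng, at 5.3 to 31.5 CPM and 2.91 to 12.9 CPM.

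**Figure D2:**
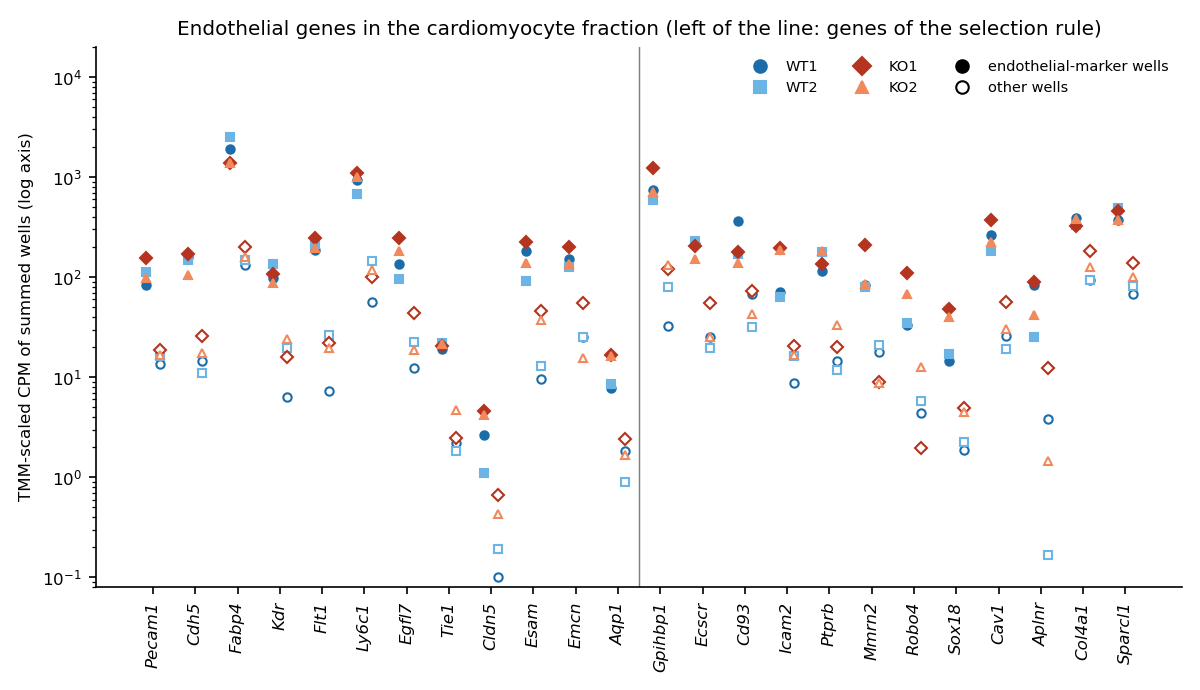
TMM-scaled CPM (log axis) of the summed wells of each animal, filled for the endothelial-marker wells and open for the other CM wells. Left of the line are the 12 genes of the rule, right of it genes the rule did not use, and for Gpihbp1 the filled symbols lie between 589 and 1234 CPM and the open ones between 32.9 and 132 CPM.

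Genes of capillary function were among those at a higher level. Gpihbp1, which carries lipoprotein lipase across capillary cells, was at 740.2 CPM in WT1, 589 in WT2, 1234 in KO1 and 716 in KO2, against 32.9 to 132 CPM in the other wells. The fatty acid transporter Cd36 was at 506 CPM in WT1, 563 in WT2, 543 in KO1 and 526 in KO2, against 154 to 323 CPM. Lpl, the lipase itself, which cardiomyocytes make, was no higher in the chosen wells of 3 animals, at 1422 CPM in WT1, 2296 in WT2, 541 in KO1 and 1947 in KO2 against 513 to 2968 CPM. Over all 13623 tested genes 10.3% were higher in the chosen wells of all 4 animals and 17.0% lower. Of the capillary lipid genes 10 of 18 were higher and 3 lower in all 4 animals, and higher were, of the caveolae and junction genes 12 of 15, of the basement membrane genes 9 of 13 and of the VEGF, angiopoietin and Notch genes 16 of 25. Cav1, the main protein of caveolae, was at 265 CPM in WT1, 185 in WT2, 375 in KO1 and 224 in KO2, against 19.3 to 57.2 CPM. Col4a1, a basement membrane collagen, was at 389 CPM in WT1, 331 in WT2, 325 in KO1 and 381 in KO2, against 94.7 to 184 CPM. Aplnr, the apelin receptor of venous and sprouting endothelium, was at 83.2 CPM in WT1, 25.4 in WT2, 89.3 in KO1 and 41.6 in KO2, against 0.169 to 12.3 CPM.

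Markers of other vessel types differed by list. Of 13 arterial genes 7 were higher and 1 lower in the chosen wells of all 4 animals, with median ratios of 5.26, 4.05, 2.36 and 2.79. The share of UMIs of the whole arterial list did not follow these ratios, at 0.0242% to 0.0607% per animal against 0.0411% to 0.0717% in the other CM wells. Of 12 venous and activated endothelium genes 5 were higher and 0 lower, with ratios of 2.57, 5.97, 3.19 and 2.52. Their share was 0.0449% to 0.121% against 0.0197% to 0.0387%. Of 9 endocardial genes 1 was higher and 3 lower in the chosen wells of all 4 animals, and of 7 lymphatic genes 1 was higher and 4 lower. The endocardial gene Npr3, which the rule limits, was at 0.499 to 5.13 CPM, and the lymphatic gene Pdpn at 0.798 to 4.19 CPM. The arterial connexin gene Gja5 was at 0.199 to 11 CPM, with UMIs in 4.42% of wells. Markers of other cell types were mostly lower than in the rest of the CM wells, with exceptions. Macrophage markers took 0.0229% to 0.15% of UMIs per animal, against 0.0875% to 0.877%, with 11 of 12 genes lower in all 4 animals. Fibroblast markers, 3 of which the rule limits, took 0.0401% to 0.127%, against 0.108% to 0.421%. Of 14 pericyte and smooth muscle markers 1 was higher and 4 lower in all 4 animals, with median ratios of 1.07, 0.538, 0.352 and 0.599. Of 6 neutrophil markers 0 were higher or lower in all 4, with ratios of 2.09, 0.0141, 0.375 and 0.987. Cardiomyocyte markers took 3.90% to 8.75% against 4.62% to 11.6%, with 11 of 15 genes lower in all 4 animals and median ratios of 0.726, 0.668, 0.779 and 0.659.

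KO and WT were then compared in the summed endothelial-marker wells of each animal. No gene passed an adjusted p of 0.05 among 10213 genes tested (edgeR quasi-likelihood test with Benjamini-Hochberg adjustment, 0.0% called), while 311 were higher (3.05%) and 262 lower (2.57%) in KO at an unadjusted p under 0.05. DESeq2 called 40 higher and 26 lower genes on the same counts, and edgeR without the filter on low counts called 26 and 14. The 24 genes named by the rule are given below in an order chosen after seeing them, and no theme was tested. In 15 of the 24, at least 1 animal had over 50% of the gene's UMIs in a single well. Every gene named below with its log2 difference passed an unadjusted p of 0.05 and, unless stated otherwise, had an adjusted p of 0.872 by edgeR. The same wells were also set beside the KO minus WT difference in the other 952 CM wells, where edgeR called 0 of 14156 genes (248 higher, 1.75%, and 201 lower, 1.42%, at an unadjusted p under 0.05, and 47 called by DESeq2). The difference between both differences was tested by a genotype-by-well-kind term, which called 0 of 13623 genes (296 higher, 2.17%, and 239 lower, 1.75%, at an unadjusted p under 0.05, and 40 called by DESeq2).

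Npdc1 (chromosome 2, 25399351 to 25409494 of mm10, plus strand), which encodes a membrane protein first described in neurons, was at 7.51 CPM in WT1, 4.36 in WT2, 64 in KO1 and 59.9 in KO2. Both KO animals lay above both WT animals, with a log2 difference of 3.37 ± 0.63 (SE). The other CM wells gave -0.10 ± 0.61, and the term for the difference between well kinds passed an unadjusted 0.05 but had an adjusted p of 1.0 by edgeR. Sprr1a (chromosome 3, 92483952 to 92485895, minus strand), a small proline-rich protein that stressed cardiomyocytes make, was at 24.8 CPM in WT1, 15.1 in WT2, 219 in KO1 and 117 in KO2. Its log2 difference of 3.07 ± 0.54 stood beside 2.02 ± 0.43 in the other CM wells. Fhl1 (chromosome X, 56731787 to 56793346, plus strand), a LIM protein of the sarcomere, was at 28.9 CPM in WT1, 21.5 in WT2, 145 in KO1 and 147 in KO2, with 2.53 ± 0.44 here and 1.58 ± 0.37 elsewhere. These levels of KO and WT did not overlap, which the rule for naming genes requires. In the order WT1, WT2, KO1 and KO2, UMIs of Npdc1 were in 37.1%, 19.2%, 28.9% and 40.9% of wells, with overlap. For Sprr1a this share was 45.7%, 23.1%, 61.8% and 65.9% and for Fhl1 42.9%, 57.7%, 63.2% and 90.9%, without overlap.

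Hspa1a, the inducible HSP70, was at 22.1 CPM in WT1, 34.6 in WT2, 207 in KO1 and 100.3 in KO2 (2.44 ± 0.54 on the log2 scale), and its near-identical copy Hspa1b may share its reads. Dnajb1, an HSP40 partner of it, was at 15.3 CPM in WT1, 12.2 in WT2, 126 in KO1 and 37.9 in KO2. A single well gave 59.7% of the WT2 UMIs of Hspa1a and 56.7% of the WT1 UMIs of Dnajb1. These were the only 2 of 12 heat shock genes past an unadjusted p of 0.05, and the median of the list was 0.16. Nupr1, a stress-induced chromatin protein, was at 20 CPM in WT1, 32.9 in WT2, 279.6 in KO1 and 62.3 in KO2, and 51.3% of the KO1 UMIs came from 1 well. Its difference of 2.69 ± 0.76 stood beside -0.66 ± 0.62 in the other CM wells, with an adjusted p of 0.0946 by edgeR for the difference between well kinds. Gadd45g, a stress-inducible gene, was at 38.7 CPM in WT1, 53.2 in WT2, 365 in KO1 and 101 in KO2. Fkbp11, a chaperone of the endoplasmic reticulum, was at 19.3 and 12.2 CPM in WT1 and WT2 and 111 and 44 CPM in KO1 and KO2 (88.1% of the WT2 UMIs from 1 well), and the cargo receptor gene Surf4 at 23 and 12.5 CPM in WT1 and WT2 and 96.6 and 73.4 CPM in KO1 and KO2. In the order WT1, WT2, KO1 and KO2, UMIs of Nupr1 were in 37.1%, 42.3%, 35.5% and 43.2% of wells. Those of Fkbp11 were in 28.6%, 15.4%, 26.3% and 29.5%. These shares overlapped between genotypes, as for Gadd45g and Surf4, while those of Hspa1a and Dnajb1 did not.

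Tnfrsf12a, the receptor of the cytokine TWEAK, was at 16.6 CPM in WT1, 11.6 in WT2, 68 in KO1 and 88 in KO2, a difference of 2.46 ± 0.54. The protease inhibitor gene Serpinb1a was at 29.1 and 22.4 CPM in WT1 and WT2 and 198 and 68.6 CPM in KO1 and KO2. H2-Ab1, a chain of MHC class II, was at 3.19 and 7.56 CPM in WT1 and WT2 and 58.4 and 14.4 CPM in KO1 and KO2, and a single well gave 70.5% of the KO2 UMIs. The levels did not overlap for these genes, which the rule for naming genes requires, and the H2-Ab1 level in KO2 rested mostly on that well. UMIs of H2-Ab1 were in 22.9%, 34.6%, 25.0% and 40.9% of the wells of WT1, WT2, KO1 and KO2, with overlap. This share also overlapped for Tnfrsf12a but not for Serpinb1a.

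On the lower side, Man2a2 (chromosome 7, 80349097 to 80371375, minus strand), a Golgi mannosidase, was at 55.3 CPM in WT1, 38.7 in WT2, 0.958 in KO1 and 4.15 in KO2, a log2 difference of -4.17 ± 0.91 beside -0.91 ± 0.50 in the other CM wells. A single well gave 65.4% of its WT1 UMIs. Lars2 (chromosome 9, 123366927 to 123462666, plus strand), the mitochondrial leucyl-tRNA synthetase, was at 227 CPM in WT1, 199 in WT2, 40.4 in KO1 and 33.2 in KO2, with -2.53 ± 0.41 here and -1.31 ± 0.46 elsewhere. Other genes of mitochondrial proteins among the named ones were Vwa8, at 26.4 and 50.6 CPM in WT1 and WT2 and 2.55 and 2.8 CPM in KO1 and KO2, Rhot1, which moves mitochondria along microtubules, at 24.8 and 67.8 CPM in WT1 and WT2 and 4.15 and 14.6 CPM in KO1 and KO2, and Ptrh2, a mitochondrial peptidyl-tRNA hydrolase, at 77.2 and 50.6 CPM in WT1 and WT2 and 16 and 18.4 CPM in KO1 and KO2. KO lay below WT in all of these, which the rule for naming genes requires. A single well gave 50.5% of the WT1 UMIs of Rhot1, 51.7% of the WT2 UMIs of Ptrh2 and 70.4% of the KO2 UMIs of Vwa8. Of 21 nuclear genes of the respiratory chain, a list not chosen by these values, 0 passed the unadjusted threshold, with a median of -0.17. Thbs1, a secreted inhibitor of vessel growth, was at 142 CPM in WT1, 25 in WT2, 13.6 in KO1 and 14.7 in KO2, so that WT1 stood far above WT2, and 56.4% of the WT1 UMIs lay in 1 well.

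Wfdc17 and Lyz2, both genes of myeloid cells, were also on this side. Wfdc17 (chromosome 11, 83703991 to 83706268, plus strand), a secreted protein of macrophages, was at 520.4 CPM in WT1, 601 in WT2, 121 in KO1 and 76.1 in KO2, a difference of -2.51 ± 0.41. A single well gave 54.4% of its UMIs in WT1 and another 53.3% in WT2. Lyz2, lysozyme of macrophages and neutrophils, was at 676 CPM in WT1, 296 in WT2, 132 in KO1 and 68.5 in KO2 (-2.28 ± 0.56), and 59.1% of the WT2 UMIs lay in 1 well. Of 11 tested macrophage markers, 2 were lower at an unadjusted p under 0.05 (Lyz2 and Adgre1), the median difference was -1.03, and with the marker threshold at 0.5% it was 0.22. The remaining genes were Map4k5, a kinase, at 30 and 39 CPM in WT1 and WT2 and 8.62 and 4.78 CPM in KO1 and KO2, Ssh2, a cofilin phosphatase, at 75.3 and 63.7 CPM in WT1 and WT2 and 8.3 and 26.7 CPM in KO1 and KO2, Plgrkt, a plasminogen receptor, at 29.8 and 34.3 CPM in WT1 and WT2 and 3.83 and 12.4 CPM in KO1 and KO2 (adjusted p = 0.889), and Dut, which degrades dUTP, at 52.1 and 23.3 CPM in WT1 and WT2 and 9.42 and 11.1 CPM in KO1 and KO2. None passed the adjusted test.

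**Figure D3:**
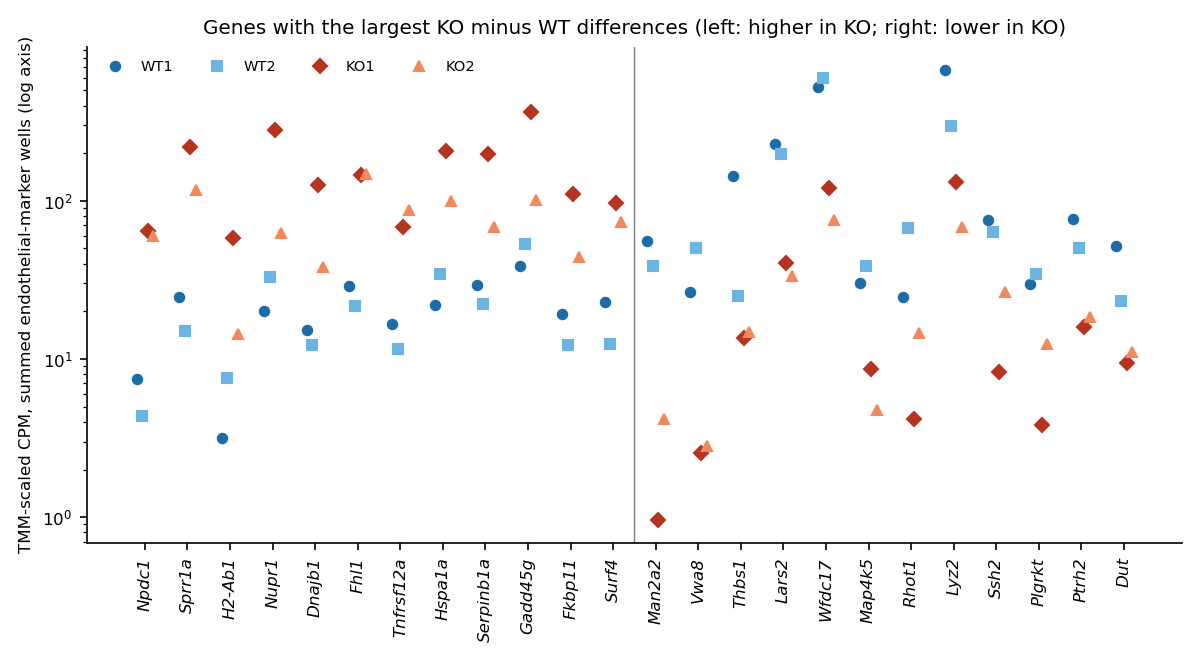
TMM-scaled CPM (log axis) in the summed endothelial-marker wells of each animal for the 12 genes with the largest higher and the 12 with the largest lower KO values under the naming rule. KO and WT do not overlap for any of the 24, which the naming rule requires, and no gene passed the adjusted test.

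No endothelial identity gene passed the adjusted test. Of the 30 identity genes 3 were higher in KO and 0 lower at an unadjusted p under 0.05, beside 3.05% and 2.57% of all tested genes. Their median was -0.03, beside -0.01 over all tested genes. Both KO animals were above both WT animals in 8 of the 30 and below in 7, beside 18.2% and 18.0% of all tested genes. The endothelial adhesion gene Icam2 was at 73.3 CPM in WT1, 65.4 in WT2, 194 in KO1 and 195 in KO2 (1.49 ± 0.38), Robo4 at 34.4 and 36.1 CPM in WT1 and WT2 and 111 and 70.8 CPM in KO1 and KO2 and Sox18 at 14.8 and 17.7 CPM in WT1 and WT2 and 47.7 and 41.5 CPM in KO1 and KO2. Of 15 caveolae and junction genes 8 had both KO animals above both WT animals and 0 below, and 3 passed the unadjusted threshold. They were Cavin3, a caveola coat protein, at 141 and 50.3 CPM in WT1 and WT2 and 302 and 207 CPM in KO1 and KO2, F11r (JAM-A), at 43.2 and 23.6 CPM in WT1 and WT2 and 125 and 81.7 CPM in KO1 and KO2, and Jam2, at 66 and 62.2 CPM in WT1 and WT2 and 141 and 115 CPM in KO1 and KO2 (adjusted p = 0.877). The list's median of 0.45 stood beside 0.53 for the same genes in the other CM wells. There Cavin3 was also higher in KO at the unadjusted threshold, while F11r and Jam2 did not pass.

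In the capillary lipid group Fabp5, a fatty acid binding protein, was at 329 CPM in WT1, 468 in WT2, 128 in KO1 and 106 in KO2, a difference of -1.77 ± 0.39. Angptl4, which inhibits lipoprotein lipase, was at 15.3 CPM in WT1, 14.3 in WT2, 55.1 in KO1 and 63.2 in KO2 (2.00 ± 0.54), and Rgcc, a cell cycle regulator of capillaries, at 133 and 85.2 CPM in WT1 and WT2 and 360.4 and 215 CPM in KO1 and KO2 (1.4 ± 0.45). Fabp5 was thus lower in both KO animals while Angptl4 and Rgcc were higher, and 13 of 16 tested genes of the list passed no threshold. Angptl4 and Rgcc, but not Fabp5, also passed the unadjusted threshold in the other CM wells, both higher in KO. In the NCM wells of the same marker rule Angptl4 passed it as higher and Fabp5 as lower, while Rgcc did not pass. Gpihbp1 and Cd36 overlapped between genotypes. Among growth factor genes Pgf, a VEGF family ligand, was at 3.87 CPM in WT1, 7.56 in WT2, 33.5 in KO1 and 67.3 in KO2 (3.14 ± 0.74). Vegfc, the lymphatic growth factor, was at 15.7 and 10.5 CPM in WT1 and WT2 and 1.6 and 1.97 CPM in KO1 and KO2, and Adgrl4, an adhesion receptor of endothelium, at 122 and 106 CPM in WT1 and WT2 and 61.3 and 35.9 CPM in KO1 and KO2. In the other CM wells Pgf was also higher in KO at the unadjusted threshold, while Vegfc and Adgrl4 did not pass. Tfpi, the inhibitor of tissue factor, was at 70.1 CPM in WT1, 41.9 in WT2, 15.8 in KO1 and 15.7 in KO2 (-1.83 ± 0.58), and Lrg1, which modifies TGF-beta signalling in vessels, at 67.6 and 80.9 CPM in WT1 and WT2 and 181 and 149 CPM in KO1 and KO2.

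Genes of MHC class I presentation and interferon-stimulated genes leaned to higher KO values in the endothelial-marker wells of the CM fraction without passing the test. Of 16 class I genes 8 had both KO animals above both WT animals and 0 below, beside 18.2% and 18.0% of all tested genes, and the median was 0.84. The immunoproteasome gene Psmb8 was at 34.4 CPM in WT1, 28.5 in WT2, 121 in KO1 and 66.9 in KO2 (1.58 ± 0.51) and the peptide transporter gene Tap1 at 7.51 and 5.53 CPM in WT1 and WT2 and 33.4 and 17.4 CPM in KO1 and KO2 (adjusted p = 0.889). Of 21 interferon-stimulated genes 9 were above and 0 below in this sense, with a median of 0.77, and Ifit3 alone passed the unadjusted threshold, at 13.7 and 2.33 CPM in WT1 and WT2 and 30.3 and 46.9 CPM in KO1 and KO2 (adjusted p = 0.889). In the other CM wells the medians were 0.15 and -0.05. The difference between well kinds was tested gene by gene only, and none of these genes was called. In the NCM wells that met the same marker rule the KO minus WT medians were -0.32 for the class I and 0.16 for the interferon-stimulated genes.

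Of 13 muscle genes of the fetal and atrial programme 6 were higher in KO at an unadjusted p under 0.05, beside 3.05% of all genes, and none passed the adjusted test. Nppa, atrial natriuretic peptide, was at 62.4 CPM in WT1, 75.3 in WT2, 286 in KO1 and 281 in KO2, a difference of 2.04 ± 0.38. The actin-binding gene Xirp2 was at 153 CPM in WT1, 181 in WT2, 829 in KO1 and 419 in KO2 (1.9 ± 0.45), and the atrial light chain gene Myl7 at 102 CPM in WT1, 117 in WT2, 275 in KO1 and 331 in KO2 (1.47 ± 0.37). The others of the 6 were Myl4, Nppb and Des. Over the list the median was 1.17, 8 genes had both KO animals above both WT animals, and 1 had both below, beside 18.2% and 18.0% of all tested genes. In the other CM wells 10 of 13 passed the unadjusted threshold, beside 1.75% of all genes, with a median of 1.45. Of the 15 cardiomyocyte markers 0 passed the unadjusted threshold, and their median was -0.44, against -0.47 in the other CM wells.

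The pathway that the knockout targets showed no called gene. Of 15 Hippo core genes 0 passed the unadjusted threshold. Of 18 YAP and TAZ target genes 0 were higher and 1 was lower, Dock5, at 2.28 and 18 CPM in WT1 and WT2 and 0.16 and 0.415 CPM in KO1 and KO2. The median of the 18 was -0.38, beside -0.01 over all tested genes. The target genes Ccn1 and Ccn2, which encode matricellular proteins, were at 45.3 and 49.7 CPM in WT1 and WT2 and 91.8 and 55.9 CPM in KO1 and KO2 and at 42.1 and 10.8 CPM in WT1 and WT2 and 101 and 56 CPM in KO1 and KO2. Of 12 leukotriene and prostanoid genes 2 were higher in KO and 0 lower at an unadjusted p under 0.05, beside 3.05% and 2.57% of all tested genes. Ltc4s, the leukotriene C4 synthase, was at 2.28 and 1.45 CPM in WT1 and WT2 and 9.74 and 34.5 CPM in KO1 and KO2. Pla2g4a, which frees arachidonic acid, was at 0.228 and 0 CPM in WT1 and WT2 and 5.27 and 3.32 CPM in KO1 and KO2. The median of the 12 was -0.93. Both KO animals were above both WT animals in 2 genes and below in 4, beside 18.2% and 18.0% of all tested genes. The leukotriene B4 receptor gene Ltb4r1 was not among the tested genes.

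Haemoglobin genes, which red blood cells make, were higher in KO in both kinds of CM well. All 4 tested in the endothelial-marker wells were higher in KO at an unadjusted p under 0.05, with a median log2 difference of 5.51, and 5 of 5 erythroid genes were in the other CM wells, with a median of 6.95. Hba-a1 was at 12.5 CPM in WT1, 5.24 in WT2, 541 in KO1 and 325 in KO2 (adjusted p = 0.248 by edgeR), and its near-identical copy may share its reads. Haemoglobin genes made up 0.0024%, 0.0012%, 0.101% and 0.0627% of all UMIs in WT1, WT2, KO1 and KO2. With mitochondrial and haemoglobin genes left out, edgeR again called 0 genes. The part of red cell RNA, depth and mitochondrial share in the other differences was not tested further.

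**Figure D4:**
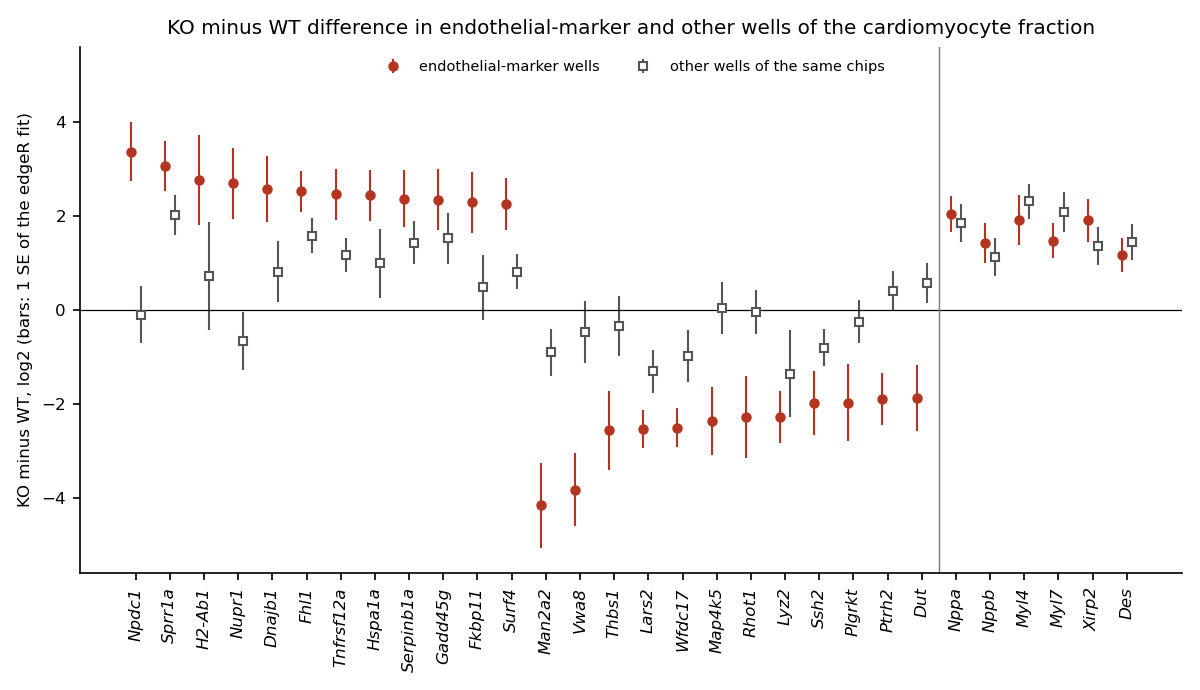
KO minus WT differences (log2, bars are 1 SE of the edgeR fit) of the same 24 genes and of 6 fetal and atrial muscle genes, in the endothelial-marker wells (red circles) and the other wells of the same CM chips (open squares). Npdc1 stands at 3.37 against -0.10, while Nppa and the other muscle genes on the right lie above 0 in both.

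The same marker rule picked 891 NCM wells, and the next comparison asked how endothelial-marker wells of the CM fraction differed from these within the same 4 animals. Muscle genes and nuclear genes of the respiratory chain were higher in the CM wells, and MHC class II, inflammatory, macrophage and fibroblast genes were lower, while no endothelial identity gene outside the rule was called. Both sets of wells were chosen by endothelial genes, which favours similar levels of the identity genes. Of 13140 genes 735 (5.59%) passed an adjusted p of 0.05 by edgeR with the animal as a block, 471 (3.58%) higher and 264 (2.01%) lower in the CM wells. Scaling by each sum's total UMIs instead gave 336 higher and 382 lower genes, and DESeq2 called 1077 and 1006. At an unadjusted p under 0.05, 7.95% of genes were higher and 10.6% lower. Without WT2 the count was 433, without KO2 457, and with wells under 9% cardiomyocyte markers only 457. Over all genes the median difference was -0.30, and -0.59 when scaled by total UMIs. Mitochondrially encoded genes took 33.9% to 50.9% of all UMIs in the CM and 8.99% to 61.4% in the NCM wells, and haemoglobin genes up to 0.101% and 15.3%. Fraction and chip cannot be told apart.

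Cardiomyocyte genes led the higher side. All 15 cardiomyocyte markers were called, with a median of 3.91, and the share of these markers in summed UMIs was 3.90% to 8.75% against 0.387% to 1.02%. Myh6, the adult heavy chain, was at 1851, 3568, 1153 and 4272 CPM in the CM wells of WT1, WT2, KO1 and KO2, against 47, 82.4, 118 and 294 CPM in the NCM wells. The CM values all lay above the NCM values, a difference of 4.47 ± 0.43 (SE, adjusted p = 0.000227 by edgeR). Nppa was at 66.4, 82.6, 324 and 320.1 against 1.22, 6.13, 9.42 and 13.7 CPM (4.76 ± 0.44), and 10 of 13 genes of the fetal and atrial list were called. The 12 largest differences on this side were Sln, Hrc, Art1, Myo18b, Asb11, Nrap, Sprr1a, Ldb3, Cmya5, Nmrk2, Acta1 and Smyd1, of which several build the sarcomere and Sln and Hrc regulate calcium in the sarcoplasmic reticulum. Sln was at 216, 61.6, 224 and 409 against 0, 0.391, 11.2 and 10.4 CPM (6.43 ± 0.99), and Hrc at 177, 344, 157 and 341 against 0.569, 3.81, 3.63 and 21.6 CPM (5.92 ± 0.67). Sprr1a, at 26.4, 16.6, 248 and 134 against 3.09, 0.521, 1.39 and 2.83 CPM, was high in the CM wells of the KO animals in particular. A single well gave 92.1% of the WT1 UMIs of Acta1, and in 19 of the 24 genes named in this comparison at least 1 animal had over 50% of its CM UMIs in 1 well. Myo18b lost its call (adjusted p = 0.123) in wells under 9% cardiomyocyte markers.

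Genes of energy metabolism were called higher as well. All 21 tested nuclear genes of the respiratory chain were called higher, with a median of 2.17 (14 when scaled by total UMIs). Of 10 mitochondrially encoded genes 0 were called, and their median within animals was 3.21, 2.24, -0.61 and -0.25 in WT1, WT2, KO1 and KO2. Cox6a2, the muscle form of a cytochrome oxidase subunit, was at 4072, 6778, 1257 and 6676 against 82.8, 239.8, 105 and 259 CPM (4.68 ± 0.38, adjusted p = 0.000113). Of 15 fatty acid oxidation genes 9 were called, including Acadm, at 162, 286, 83.9 and 294 against 32.7, 50.4, 31.5 and 26.5 CPM, and Hadha, at 209, 288, 127 and 238 against 31.1, 43.8, 31.8 and 67.9 CPM. Ptgds, a prostaglandin D synthase, was at 545, 724, 168 and 674 CPM in the CM wells of WT1, WT2, KO1 and KO2, against 11.2, 32.7, 18 and 27.3 CPM in the NCM wells, with no overlap and a difference of 4.48 ± 0.42 (adjusted p = 0.000205). Pdk4, which restrains glucose oxidation, was at 17.5, 34.8, 8.86 and 53.3 against 0.163, 0.326, 0.193 and 11.8 CPM (adjusted p = 0.011), but missed the threshold without WT2 (0.0581) and without the block (0.168). Ankrd1, a muscle gene that YAP also regulates, was at 811, 1070.0, 1130.3 and 1338 against 61.6, 117, 106 and 113 CPM (3.47 ± 0.27). The cardiomyocyte marker share was also higher in the CM wells, and its part in these differences was not tested.

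Antigen presentation by MHC class II separated the fractions on the lower side. Of 7 tested genes 5 were called lower, with a median of -5.27, and the list took 0.0030% to 0.0198% of UMIs in the CM against 0.146% to 0.299% in the NCM wells. H2-Eb1, a class II beta chain, was at 1.7, 3.19, 2.35 and 1.78 CPM in the CM wells of WT1, WT2, KO1 and KO2, against 273, 159, 151 and 86.5 CPM in the NCM wells, a difference of -6.11 ± 0.47 (adjusted p = 0.000103). H2-Ab1 was at 3.39, 8.29, 66.2 and 16.5 against 854, 539.6, 476 and 408 CPM (-5.27 ± 0.75), H2-Aa at 7.27, 18.8, 17.7 and 3.08 against 442, 289, 244 and 179.6 CPM and the invariant chain gene Cd74 at 0.242, 1.28, 1.63 and 0.355 against 45.6, 95.9, 30.8 and 22.2 CPM. No animal's CM value reached the lowest NCM value for any of these. Of 16 class I genes 2 were called lower, H2-K1 at 142, 117, 149 and 207 against 483, 383, 392 and 338 CPM and H2-D1 at 184, 134, 333 and 287 against 965, 758, 562 and 525 CPM. These class I genes are near-identical in part, and neither call held without WT1 (adjusted p = 0.102 and 0.135) or without WT2 (0.104 and 0.145). That of H2-K1 also ended without KO1 (0.0506), with markers of at least 0.5% (0.0662) and under 9% cardiomyocyte markers (0.0527). That of H2-D1 also ended when scaled by total UMIs (0.0555).

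Inflammatory genes were lower as well, with 8 of 15 called and a median of -2.11. The interleukin gene Il1b was at 62.8, 48.8, 31.6 and 50.7 CPM in the CM wells of WT1, WT2, KO1 and KO2, against 766, 298, 659.8 and 518 CPM in the NCM wells (-3.49 ± 0.35, adjusted p = 0.000323). Tnf was at 8.0, 12.8, 7.77 and 7.46 against 385, 48.7, 174 and 133 CPM, the chemokine gene Ccl3 at 20.6, 5.1, 1.08 and 23.2 against 261, 104, 155 and 126 CPM, and Nfkbia, the feedback inhibitor of NF-kB, at 562, 401, 826 and 419 against 2401, 1378, 1547 and 1445 CPM. Every CM value of these genes lay below every NCM value. Of 15 immediate early genes 6 were called lower, a count that ran from 1 to 11 over the alternatives. Fos was at 42.4, 82.6, 146 and 68 against 288, 260.2, 269.7 and 328 CPM (-1.89 ± 0.36), and missed the threshold without WT1 (adjusted p = 0.0587) and in wells under 50% mitochondrial UMIs (0.0658). Of 24 interferon-stimulated genes 2 were called, Ifi27l2a at 76.9, 114, 55.1 and 129 against 247, 213, 208 and 1017 CPM and Ifit1 at 53.1, 5.1, 10.5 and 20 against 103, 17.6, 47.9 and 73.8 CPM. Ifi27l2a missed it without KO2 (adjusted p = 0.0633). Ifit1 missed the threshold in 11 alternatives, and its CM and NCM values overlap.

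Markers of other cell types were among the lowest genes in the CM wells. Of 12 macrophage markers 9 were called lower (median -3.08), of 10 fibroblast markers 7 (-2.57), of 7 neutrophil markers 4 (-4.50), of 8 lymphatic genes 3 (-3.29) and of 7 erythroid genes 5 (-7.37). The fibroblast list holds Dcn, Col1a1 and Col3a1, which the rule limits in the wells of both fractions, so its count and median rest in part on genes of the rule. The macrophage complement gene C1qb was at 65.7, 38.9, 98.1 and 32 against 499, 344, 449 and 516 CPM (-3.07 ± 0.36), and the leukocyte gene Ptprc at 9.7, 0, 3.8 and 0.118 against 43.9, 29.6, 67 and 32 CPM, although Ptprc missed the threshold without WT2 (adjusted p = 0.0566) or KO1 (0.0522). It also missed it without barcodes of the other fraction (0.0559) and without the block (0.0553). S100a8, of neutrophils, was at 0.97, 0.638, 0.542 and 13 against 872, 38.1, 98.3 and 79.6 CPM, and Gsn, high in fibroblasts, at 11.9, 4.15, 14.8 and 7.58 against 370.4, 244, 284 and 354 CPM (-5.14 ± 0.40). The lymphatic chemokine gene Ccl21a was at 0, 0.319, 12.1 and 0.355 against 244, 277, 418 and 30.6 CPM (-7.27 ± 0.88), and Pdpn at 1.7, 4.78, 2.35 and 0.947 against 54.7, 12.5, 32.2 and 23.5 CPM. Ccl5, Hp, S100a9 and Pld4 completed the 12 largest. The calls of Ccl5 (adjusted p up to 0.154), Hp (0.102), S100a9 (0.0507) and Pdpn (0.122) each ended when some single animal was left out, in Ccl5 any but WT1, in Hp any but KO1, in S100a9 WT1 and in Pdpn any but WT2. In summed UMIs macrophage markers took 0.0229% to 0.15% of the CM and 0.329% to 0.467% of the NCM wells. The part of RNA from these cells in the class II and inflammatory differences was not tested.

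None of the 30 endothelial identity genes outside the rule passed this test. The same marker rule chose both sets of wells, and the identity genes went with the marker share within the CM wells. The choice of wells thus favours similar levels, and the result cannot show that the fractions are alike in these genes. Of the 30 identity genes 0 were called higher or lower by edgeR, by DESeq2 or under any other alternative that could be fitted, 1 was lower at an unadjusted p under 0.05, and the median was -0.36 beside -0.30 over all genes. None was called either among 15 caveolae and junction genes (median -0.44) or 13 basement membrane genes (-0.45). A few vascular genes outside these lists were called. Mgp, matrix Gla protein, high in arteries and stroma, was at 61.6, 126, 123 and 190.1 against 822, 441, 415 and 795 CPM (-2.32 ± 0.38, adjusted p = 0.00459), with all CM values below all NCM values. Sele, E-selectin of activated endothelium, was at 43.4, 43.4, 45.2 and 19.4 against 4.72, 8.6, 15.4 and 3.11 CPM (2.43 ± 0.53, adjusted p = 0.0246), and it missed the threshold when scaled by total UMIs (0.0653), with thinned wells (0.0769), in wells under 50% mitochondrial UMIs (0.195), and without WT1 (0.0888), WT2 (0.0942) or KO2 (0.0905). Hmox1, haem oxygenase, was at 13.1, 3.51, 16.3 and 4.03 against 34.7, 19.8, 54.3 and 37.6 CPM (adjusted p = 0.043), and missed the threshold whichever animal was left out (0.0759 to 0.207). It also missed it with RLE size factors (0.0534), with markers of at least 0.5% (0.0756) and in wells under 50% mitochondrial UMIs (0.190). The same held under 9% cardiomyocyte markers (0.0916), without barcodes of the other fraction (0.184) and without the block (0.0687).

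**Figure D5:**
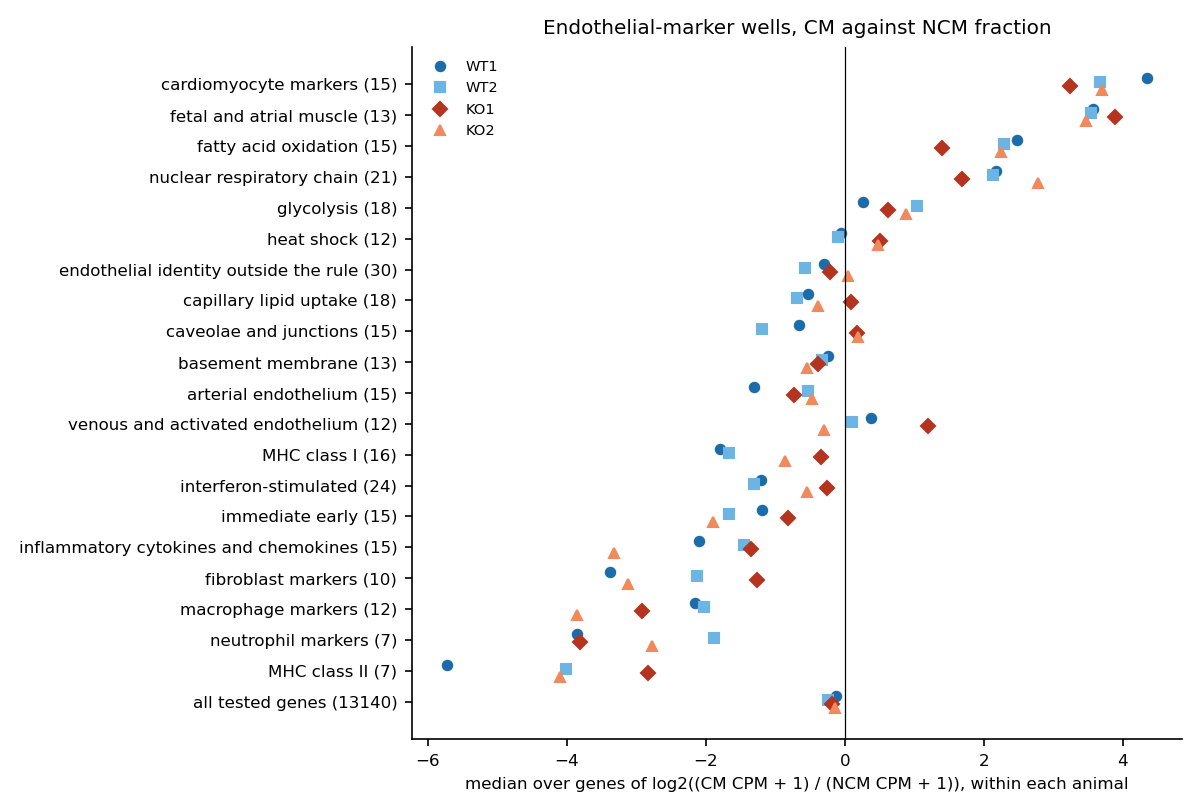
For each gene list (number of tested genes in brackets) the points give the median over genes of the log2 ratio of CM to NCM endothelial-marker wells, computed within each animal with 1 CPM added to both. Cardiomyocyte markers lie between 3.24 and 4.35 and MHC class II between -5.73 and -2.83, while the endothelial identity genes lie between -0.57 and 0.04, close to all tested genes. The marker rule that chose both sets of wells favours similar levels of the identity genes.

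Last, the KO minus WT difference was compared between the CM and NCM endothelial-marker wells. No gene passed among 13140 (edgeR, with 433 higher, 3.3%, and 355 lower, 2.7%, at an unadjusted p under 0.05, and 256 called by DESeq2), and KO against WT within the NCM wells called 0 of 13434 (615 higher, 4.58%, and 541 lower, 4.03%, at an unadjusted p under 0.05, and 263 called by DESeq2). The endothelial adhesion gene Icam2 gave the smallest p of the named genes. It was at 78.1, 71.8, 220.1 and 222 CPM in the CM wells of WT1, WT2, KO1 and KO2, against 657, 316, 142 and 76.9 CPM in the NCM wells. In the CM wells both KO animals were above both WT animals, and in the NCM wells both were below. The difference between fractions was 3.69 ± 0.57 on the log2 scale (adjusted p = 0.140 by edgeR), and over the alternatives the adjusted p ran from 2e-06 to 0.187. Tnfrsf12a was at 17.7, 12.8, 77 and 100.3 against 28.5, 17.6, 4.21 and 9.01 CPM (adjusted p = 0.339) and Npdc1 at 8.0, 4.78, 72.5 and 68.3 against 35.1, 50.7, 41 and 20.9 CPM (0.490), and for both the KO animals were above the WT animals in the CM wells. Ptrh2 was at 82.2, 55.5, 18.1 and 21 against 2.2, 4.2, 12.9 and 30.7 CPM (0.493), with KO below WT in the CM and above WT in the NCM wells. Abcf2, Serpinb1a and Pex19 on the higher side and Sgca, Lmod3, Rab11fip5, Gpc1 and Fbxl22 on the lower side completed the named genes, with adjusted p between 0.396 and 0.789.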

How the data were processed

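UMI counts per gene and well were deposited by the authors as 1 table per chip, with a per-well report that gives animal and fraction. The gene sums equal the report's distinct gene and UMI pairs in 4315 of 4315 wells. Reads were handled with STAR 2.5.2b, featureCounts and Subread 1.4.6-p1 on mm10, per the submitters' processing notes. The way UMIs were collapsed, any use of strand and the annotation were not given in the sources used here. Of 29245 gene columns, 28604 matched a symbol in a reference table of gene names, and positions are from GENCODE M21. The animal is the replicate, and no well was removed as a doublet.

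Counts of the chosen wells were summed per animal and tested with edgeR 4.0.16 (quasi-likelihood, TMM, filterByExpr, R 4.3.3), with Benjamini-Hochberg adjustment at 0.05. The comparison of fractions and both difference terms had the animal as a block, since each animal gave both sums. Shares were compared by an exact permutation test over animals. Alternatives were total UMIs or RLE size factors for scaling, DESeq2 1.42.0 as the test, no filter, mitochondrial and haemoglobin genes left out, thinning to 10000 UMIs, other well choices and each animal left out. Tables were handled with pandas 2.3.3 and numpy 2.4.6 under Python 3.11.15, figures drawn with matplotlib 3.10.9, exact intervals taken from scipy 1.17.1, and the count scripts were tested on simulated data.

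Up to 12 genes a direction (6 for the difference between fractions) were named by the largest log2 difference among genes past the adjusted threshold, filled up from an unadjusted p under 0.05, with a mean of at least 20 CPM, groups that do not overlap and UMIs in at least 20% of the wells of each animal on the higher side. Predicted, mitochondrial, haemoglobin and rule genes were left out. Further genes came from 35 lists of pathways and cell types. The members, lists and genes were chosen with earlier results of these data known.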

Additional observations from a re-analysis of the deposited data

How the results depend on the processing

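Counts of called genes depended on the tool and the filter. KO against WT in the endothelial-marker wells gave 0 genes by edgeR, 40 without the filter on low counts, 66 by DESeq2, 3 with thinned wells, 2 in wells under 9% cardiomyocyte markers, and 0 to 5 with 1 animal left out (5 without KO1, 2 without KO2). In the other CM wells it gave 49 without the filter, 47 by DESeq2 and 0 to 4 with 1 animal left out (4 without KO1), and in the NCM endothelial wells 157, 263 and 0 to 18 (18 without WT2). The difference between well kinds gave 13 without the filter, 40 by DESeq2, 1 when thinned and 0 to 29 with 1 animal left out (29 without KO1, 3 without KO2, 1 without WT2). The difference between fractions gave 1 when scaled by total UMIs, 71 without the filter, 256 by DESeq2, 67 when thinned, 13 in wells under 9% cardiomyocyte markers, 28 with barcodes of the other fraction left out, and 12 to 69 with 1 animal left out (69 without WT1, 37 without KO1, 16 without WT2, 12 without KO2). Scaling by total UMIs moved its median over all genes from -0.05 to 0.83 and that of KO against WT in the NCM wells from -0.02 to -0.92. CM against NCM called 735 genes, 2083 by DESeq2 and 457 in wells under 9% cardiomyocyte markers. It called 496 with barcodes of the other fraction left out and 433 to 644 with 1 animal left out. Without the block by animal it called 857, 502 higher and 355 lower. Over the named genes, 684 alternative values of this comparison kept their call, 65 lost it and 1 gained it. For KO against WT 702 kept their side of the threshold and 36 passed it, and for the difference between fractions 134 and 34. No direction of a named gene reversed. The difference in the share of wells reversed to -1.65 points without KO1 and ran up to 15.7 without KO2. The cause of these changes was not tested.

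No paired analysis was possible because, for KO against WT, the animals of both genotypes are different mice and the replicate numbers only name libraries. Wells under 1% cardiomyocyte markers left under 10 wells in a sum for all but the NCM comparison, and wells under 30% mitochondrial UMIs for all but the other CM wells, so these were not run. The limits of 50% mitochondrial UMIs and 9% cardiomyocyte markers, the left-out barcodes and the comparisons with the other CM wells were added after seeing the data. Where 1 animal is left out, the lone animal of a genotype is assumed to vary like the others. With 26 to 76 wells and 3481946 to 9407476 UMIs per animal, low genes such as Stk4 rest on few UMIs.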

Other observations

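Counts within wells were larger than 1 for most detected genes. The median nonzero count in the endothelial-marker wells was 4, 5, 5 and 8 in WT1, WT2, KO1 and KO2, and 20.9% to 26.6% of nonzero counts were 1, against 22.5% to 25.5% in the other CM wells. The median well had 2.41, 2.36, 3.07 and 2.82 read pairs per UMI.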
